A study of Mus musculus with 23 samples.

Results

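The 10 genes described here encode proteins that coat, enlarge or break down lipid droplets. They are the perilipins *Plin2*, *Plin4* and *Plin5*, the CIDE family genes *Cidea*, *Cideb* and *Cidec*, the lipase inhibitor *G0s2*, and the patatin-like lipases *Pnpla2*, *Pnpla3* and *Pnpla5*. Their probes were taken by gene name, which gave 15 of the 56605 probes and 10 of the 37074 gene names on the array. All 15 probes passed the filter on dim probes, which 32087 probes of 21056 genes passed in all. Each gene was read from its brightest probe, and *Plin2*, *Plin5*, *Cideb*, *Pnpla3* and *Pnpla5* had a second probe that is given beside it.

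A lipid droplet is a store of triglycerides and cholesterol esters wrapped in a layer of phospholipid and protein. Perilipins coat it and govern which enzymes reach the lipid, CIDE proteins pass lipid from droplet to droplet so that droplets enlarge, and patatin-like lipases cut fatty acids from the stored triglyceride. In hepatocytes, droplets swell when fatty acid supply and synthesis exceed oxidation and export, and they are the visible sign of a fatty liver.

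Liver RNA of 23 male C57BL/6J-background mice was hybridised to Agilent arrays, 1 array per mouse, to ask what the receptor PXR does to liver transcripts. PXR, encoded by *Nr1i2*, is a nuclear receptor that senses foreign chemicals, and pregnenolone 16α-carbonitrile (PCN) is its ligand in rodents. Wild-type (WT) or *Pxr*-/- mice were given PCN at 100 mg/kg by intraperitoneal injection each day for 4 days, dissolved in corn oil, or the oil alone. Livers were taken from mice with free access to food 6 h after the last injection, at zeitgeber time 6. The groups were WT CONT (n = 6), WT PCN (n = 5), *Pxr*-/- CONT (n = 6) and *Pxr*-/- PCN (n = 6), and 6 mice had been allotted to WT PCN. WT mice were bought at 6 weeks of age, whereas *Pxr*-/- mice, backcrossed to the same strain, came from a colony bred in the facility for 10 years, and all were kept for 2 weeks before allocation. The age of the *Pxr*-/- mice is not given in the sources used here. Genotype and colony therefore cannot be told apart. The deletion was present in every tissue, so a difference between genotypes is one of whole animals.

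The arrays were washed in 2 batches, each with 3 arrays of every group except that washing batch 2 held 2 WT PCN arrays. From 29510 to 33321 probes per array exceeded background clearly. All 8 listed hepatocyte markers were well above background on all 23 arrays. *Cyp3a11*, a drug-metabolizing enzyme that PXR induces, had a log2 signal of 16.9 to 17.29 on the WT PCN arrays, above every other array, where it reached at most 15.13. The probe for the deleted gene *Nr1i2* had mean log2 signals of 11.47 in WT CONT and 11.44 in *Pxr*-/- CONT. Where this probe lies relative to the deleted part is not given in the sources used here, so it does not check the genotype. In whole liver, fewer cells of a type and less RNA per cell cannot be told apart.

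Levels below are normalized log2 signals, and a change is the difference between groups from a limma model with washing batch as a term, with its standard error (SE). A gene was called when its Benjamini-Hochberg adjusted p over all probes tested was at most 0.05 and its fold change was above 1.5. After PCN in WT mice, 5 of the 10 genes were called: *Pnpla3* and *Pnpla5* were higher, and *Plin2*, *Plin4* and *Plin5* were lower. Of all 21056 genes, 6.18% were called in this comparison, 3.79% higher and 2.39% lower. The values of WT PCN and WT CONT mice did not overlap for these 5 genes and for *Cideb*. The share of all genes without such overlap was not counted, so this number cannot be judged against it. The median change of the 10 genes was -0.18, and that of all genes was -0.02. The difference between the PCN effects of the 2 genotypes was called for 2 of the 10, *Pnpla3* and *Pnpla5*, both higher in WT, against 1.05% of all genes called and 0.807% called higher. In *Pxr*-/- mice, PCN led to no call by limma among the 10 genes, against 2.28% of all genes, although 3 of the 10 had an unadjusted p under 0.05. The calls there were 1.42% higher and 0.86% lower over all genes. Their median change was -0.35 there, against -0.01 over all genes.

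**Figure D1:**
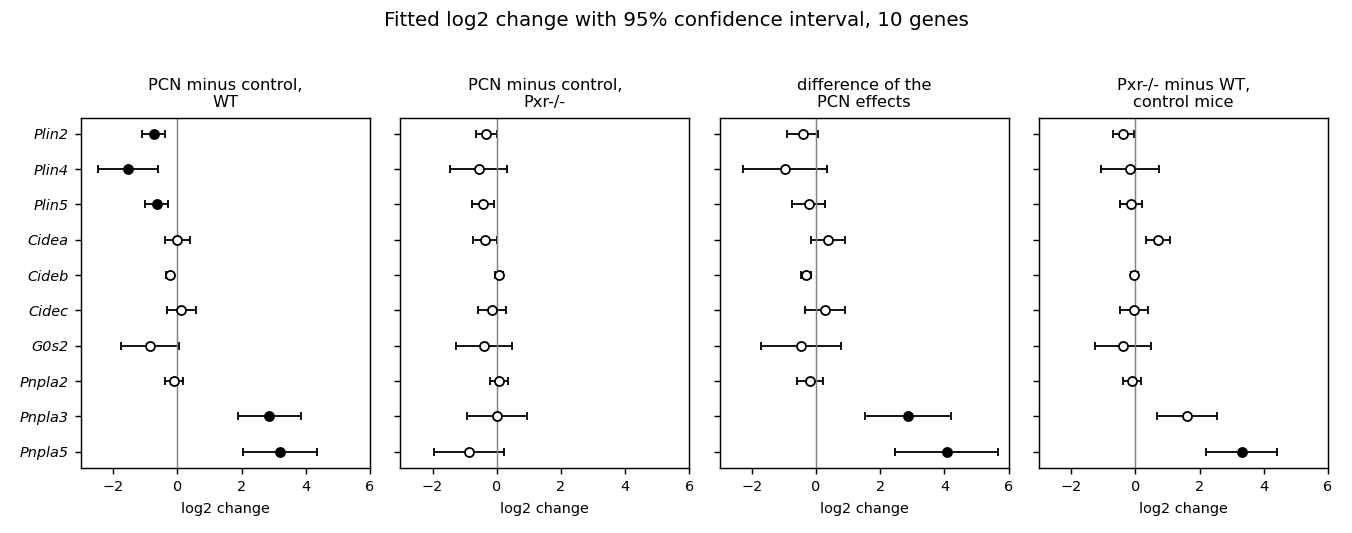
Fitted log2 change (x axis) of the 10 genes (y axis) in 4 comparisons, with 95% confidence intervals from the limma model, filled points being called. *Pnpla3* and *Pnpla5* stand apart on the right in WT mice and in the difference of the PCN effects, and the 3 perilipins lie left of 0 in WT mice.

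The 3 perilipins among the 10 genes were all lower in WT mice given PCN. The other perilipins tested, *Plin1* (-0.04, limma adjusted p = 0.878) and *Plin3* (-0.14, adjusted p = 0.4), were not called. *Plin2* coats the droplets of most cells and is the main perilipin of hepatocytes, *Plin5* ties droplets to mitochondria in tissues that burn fat, and *Plin4* coats small nascent droplets in fat and muscle. *Plin4* and *Plin5* are neighbours on chromosome 17, with no protein-coding gene between them in the RefSeq annotation of GRCm38. The 250 bases before their start sites, and those of *Plin2*, are shown because these 3 transcripts fell together, with capitals for every match to CCAAT and to the nuclear receptor hexamer AGGTCA on either strand (sequences from RefSeq, GRCm38.p6, with 1 of the 2 windows of *Plin5*).
Plin2, chr4:86670060-86670309, minus strand: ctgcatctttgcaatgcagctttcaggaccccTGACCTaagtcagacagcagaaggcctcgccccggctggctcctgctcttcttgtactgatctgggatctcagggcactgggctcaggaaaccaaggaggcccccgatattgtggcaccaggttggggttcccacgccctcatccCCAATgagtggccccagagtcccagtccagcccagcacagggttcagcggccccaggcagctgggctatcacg
Plin4, chr17:56109783-56110032, minus strand: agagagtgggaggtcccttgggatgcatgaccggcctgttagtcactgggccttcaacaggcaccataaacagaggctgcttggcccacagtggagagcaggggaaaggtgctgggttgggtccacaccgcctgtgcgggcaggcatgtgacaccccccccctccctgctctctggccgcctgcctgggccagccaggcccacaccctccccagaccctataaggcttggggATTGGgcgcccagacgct
Plin5, chr17:56117549-56117798, minus strand: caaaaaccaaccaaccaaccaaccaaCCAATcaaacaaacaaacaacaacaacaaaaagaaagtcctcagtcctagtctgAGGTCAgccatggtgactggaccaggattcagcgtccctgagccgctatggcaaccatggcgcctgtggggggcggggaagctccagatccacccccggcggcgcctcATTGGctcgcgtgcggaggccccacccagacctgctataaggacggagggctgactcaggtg
*Plin2* and *Plin5* hold AGGTCA, at -218 to -213 and at -170 to -165 from the start site, and this *Plin4* window does not. Of all 32851 windows of this length in the table, 14% hold AGGTCA and 33.8% hold CCAAT. The *Plin5* matches all lie in the window shown, and its other window, not shown, held neither motif. A match is a run of letters and not a measured binding site.

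*Plin2* was measured on chromosome 4 (mm9, 86302847 to 86302906). In WT CONT mice its lowest, median and highest log2 signals were 14.36, 14.62 and 15.57. The WT PCN mice had 14.27, 14.23, 13.57, 13.99 and 13.93. All WT PCN livers were therefore below all WT CONT livers, by little at the edge of the ranges. The change was -0.75 (SE 0.17, limma adjusted p = 0.0026), or 1.68-fold lower. The second *Plin2* probe gave -0.53 (SE 0.16, adjusted p = 0.0161), short of the fold threshold, and its groups overlapped. In *Pxr*-/- mice the lowest, median and highest signals were 14.18, 14.40 and 14.61 in CONT and 13.86, 14.01 and 14.37 after PCN. These ranges overlapped and the change was not called (-0.33, SE 0.16, limma adjusted p = 0.228). The *Plin2* change in WT was -0.43 (adjusted p = 0.0771) within washing batch 1 and -1.13 (adjusted p = 0.0469) within washing batch 2, and -0.50 with the authors' deposited values (adjusted p = 0.0213), where it missed the fold threshold.

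*Plin4* was measured on chromosome 17 (mm9, 56240055 to 56240114) and had the widest drop of the 3. Its lowest, median and highest log2 signals in WT CONT mice were 8.61, 9.46 and 10.103. In the WT PCN mice they were 8.51, 8.02, 7.64, 6.94 and 7.92. No WT PCN liver reached the lowest WT CONT liver. The change was -1.54 (SE 0.46, limma adjusted p = 0.0177), or 2.91-fold lower. *Pxr*-/- CONT mice spread more, with 7.60, 8.85 and 10.88 as lowest, median and highest, and *Pxr*-/- PCN mice had 8.01, 8.42 and 9.54. The highest *Pxr*-/- CONT livers were replicates 3 and 6, both of washing batch 2, at 10.73 and 10.88. The change in *Pxr*-/- mice was -0.57 (SE 0.43, limma adjusted p = 0.487) and was not called. Within the washing batches the WT change was -1.66 (adjusted p = 0.0439) and -1.49 (adjusted p = 0.202), and without WT PCN replicate 4 it was -1.36 (adjusted p = 0.0505), so that the call then ended.

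*Plin5* was measured next to *Plin4* on chromosome 17 (mm9, 56251025 to 56251084). Its log2 signals were 12.81, 13.09 and 14.11 as lowest, median and highest in WT CONT mice. The WT PCN mice had 12.59, 12.74, 12.44, 12.25 and 12.62, all below the WT CONT range. The change was -0.65 (SE 0.18, limma adjusted p = 0.0109), or 1.57-fold lower, close to the fold threshold. The second *Plin5* probe gave -0.53 (SE 0.21, adjusted p = 0.077) and was not called. *Pxr*-/- CONT mice had 12.62, 12.89 and 13.69, and *Pxr*-/- PCN mice 12.45, 12.67 and 12.82. The change between them was not called (-0.42, SE 0.17, limma adjusted p = 0.142). The WT call ended within washing batch 1 (-0.49, adjusted p = 0.0476) and batch 2 (-0.85, adjusted p = 0.141), without WT CONT replicate 2 (-0.50, adjusted p = 0.0203) or WT PCN replicate 3 (-0.58, adjusted p = 0.0373), and with the deposited values (-0.47, adjusted p = 0.0475).

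All 3 perilipins had the same order of group means, WT CONT highest, then *Pxr*-/- CONT, *Pxr*-/- PCN and WT PCN. No neighbouring pair in that order was called for any of them. The difference between the PCN effects of the genotypes was not called either. It was -0.41 for *Plin2* (95% interval -0.89 to 0.06, limma adjusted p = 0.428), -0.97 for *Plin4* (-2.28 to 0.33, adjusted p = 0.514) and -0.23 for *Plin5* (-0.74 to 0.28, adjusted p = 0.732). The fall in WT mice is therefore not shown to differ from the values in *Pxr*-/- mice.

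**Figure D2:**
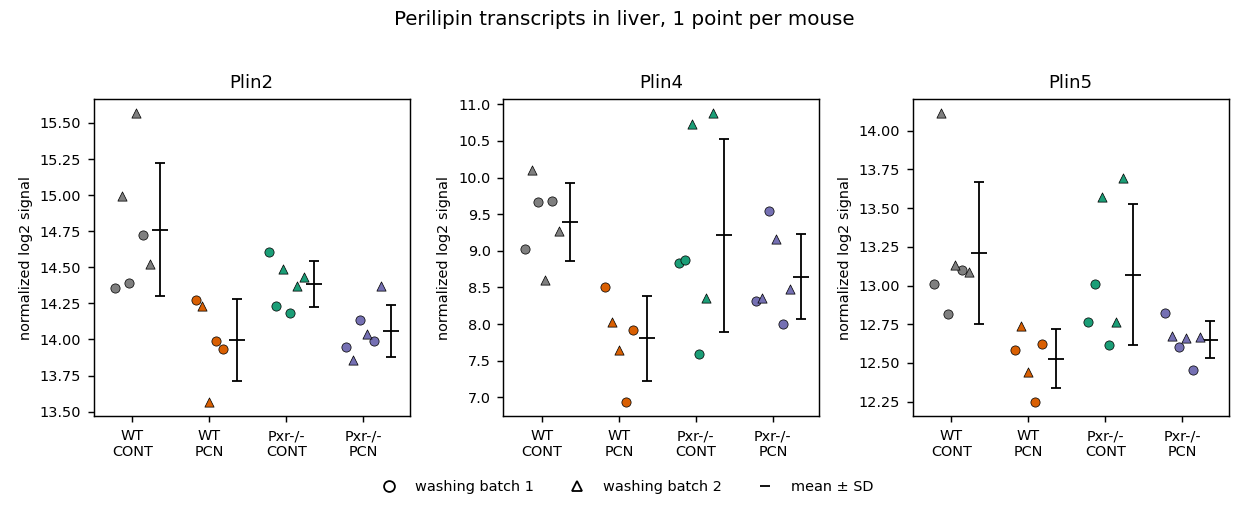
Normalized log2 signal (y axis) of *Plin2*, *Plin4* and *Plin5* in each mouse of the 4 groups (x axis), with the mean ± SD beside each group and the marker showing the washing batch. The 5 WT PCN points lie below all 6 WT CONT points in every panel, and the *Pxr*-/- groups overlap.

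Among other fat cell transcripts, the markers *Adipoq* and *Ucp1* were well above background on no array. *Lep*, *Cfd*, *Fabp4* and *Car3* were well above background on every array, and *Retn*, *Adig* and *Plin1* on part of the arrays. *Cfd*, a secreted fat cell protease, had mean log2 signals of 8.18 in WT CONT, 7.11 in WT PCN, 8.37 in *Pxr*-/- CONT and 7.72 in *Pxr*-/- PCN, with WT CONT values from 5.95 to 9.50. Its change in WT mice was -1.07 (SE 0.65, limma adjusted p = 0.255). *Fabp4*, a fatty acid carrier of fat cells and macrophages, rose by 0.61 in WT mice given PCN (SE 0.16, adjusted p = 0.00678), opposite to the perilipins. Of the 9 adipocyte markers listed, 6 were tested and *Fabp4* was the only one called in WT mice. The summed signal of the list ranged from 21633.5 to 101822 in WT CONT, from 67408.4 to 114376 in WT PCN, from 55224.3 to 97567.9 in *Pxr*-/- CONT and from 87947.5 to 117476 in *Pxr*-/- PCN, and was mostly *Car3*, which hepatocytes also express. The part of fat cell RNA in the perilipin values was not tested.

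The CIDE genes were not called in any of the 5 comparisons of the study. *Cideb*, the CIDE protein of hepatocytes and a partner of lipoprotein assembly, was measured on chromosome 14 (mm9, 56372942 to 56373001). It had lowest, median and highest log2 signals of 14.99, 15.02 and 15.07 in WT CONT mice. The WT PCN mice had 14.73, 14.91, 14.86, 14.63 and 14.68, all below the WT CONT mice. The change was small but precise, -0.25 (SE 0.06, limma adjusted p = 0.00402), or 1.19-fold lower and under the fold threshold. The *Pxr*-/- CONT mice (14.82 to 15.18) and *Pxr*-/- PCN mice (14.93 to 15.24) overlapped, with a change of 0.06. Between the PCN groups, *Pxr*-/- mice were 0.29 above WT mice without overlap (SE 0.06, adjusted p = 0.00474), again under the fold threshold, where 2.09% of all genes were called, 0.731% higher and 1.36% lower. *Cideb* was the only one of the 10 genes without overlap there, and the share of all genes without overlap was not counted. Both signs turned with the deposited values, to 0.02 for PCN in WT mice and -0.02 for *Pxr*-/- against WT with PCN. The deposited values shifted the median of all genes by 0.11 and -0.19 in these comparisons. The second *Cideb* probe gave 0.12 in WT mice (SE 0.13, adjusted p = 0.546), so the 2 probes disagreed in sign.

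*Cidec*, which enlarges droplets in fat and in fatty liver, ranged from 7.83 to 8.98 in WT CONT and from 7.68 to 8.92 in WT PCN mice. The groups overlapped and the change was 0.12 (95% interval -0.34 to 0.57, limma adjusted p = 0.748). In *Pxr*-/- mice it was -0.16 (-0.59 to 0.28). *Cidea*, known from brown fat and from steatotic liver, was dim, being well above background on 17 of 23 arrays and on 1 of 5 WT PCN arrays. Its lowest, median and highest log2 signals were 5.20, 5.40 and 5.57 in WT CONT and 5.48, 6.04 and 6.76 in *Pxr*-/- CONT mice. The ranges overlapped at their edges. The genotype difference in control mice was 0.70 (SE 0.18, limma adjusted p = 0.103) and was not called, except without *Pxr*-/- CONT replicate 2 (0.80, adjusted p = 0.0409). PCN in WT mice gave -0.01 for *Cidea* (95% interval -0.40 to 0.38).

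*G0s2* encodes the inhibitor that binds the lipase ATGL, and *Pnpla2* encodes ATGL itself, which starts the breakdown of stored triglyceride. Neither was called in any comparison. *G0s2* had 10.82, 12.07 and 12.44 as lowest, median and highest log2 signals in WT CONT mice. In WT PCN mice it had 10.68, 12.18, 10.93, 10.54 and 10.35, so that replicate 2 lay with the controls and the other 4 near or below the lowest of them. The change of -0.86 was within the spread (95% interval -1.77 to 0.05, limma adjusted p = 0.171). *Pxr*-/- CONT mice were the most scattered (9.93 to 12.63), and the *Pxr*-/- change was -0.39 (-1.26 to 0.48). *Pnpla2* stayed between 12.17 and 13.01 on all 23 arrays. Its change was -0.11 in WT (95% interval -0.40 to 0.17) and 0.08 in *Pxr*-/- mice (-0.20 to 0.35).

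**Figure D3:**
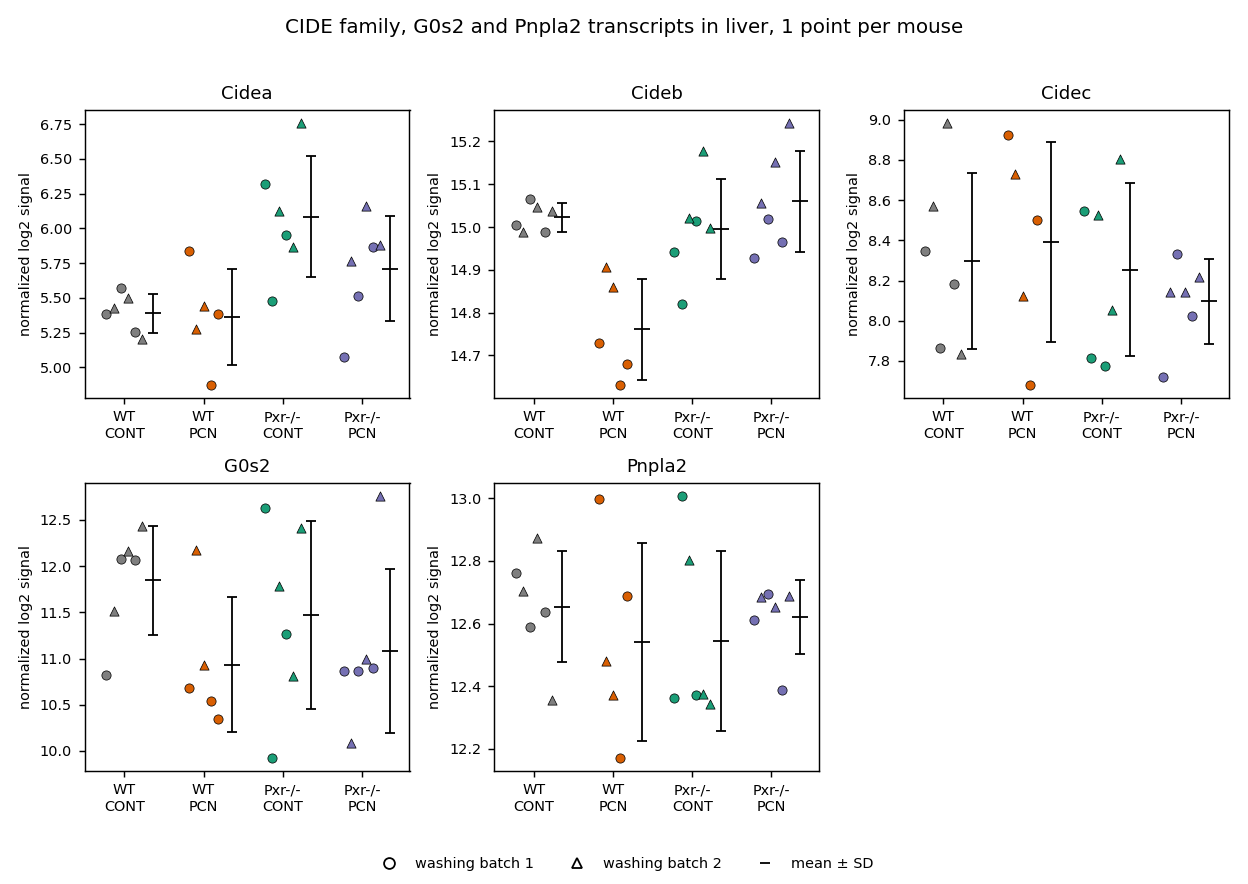
Normalized log2 signal (y axis) of *Cidea*, *Cideb*, *Cidec*, *G0s2* and *Pnpla2* in each mouse of the 4 groups (x axis), with the mean ± SD beside each group and the marker showing the washing batch. The panels have different scales, and *Cideb* is the gene whose WT PCN points lie below all WT CONT points.

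*Pnpla3* and *Pnpla5* had the largest changes of the 10 genes. *Pnpla3* encodes a droplet-bound enzyme of hepatocytes with lipase activity, and feeding and lipogenic factors are known to raise its transcript. *Pnpla5* encodes a close relative with activity on triglycerides. They are neighbours on chromosome 15, with no protein-coding gene between them in the RefSeq annotation. The 250 bases before their start sites are shown because both transcripts moved together, with capitals for CCAAT and for the E-box CACGTG on either strand (sequences from RefSeq, GRCm38.p6).
Pnpla5, chr15:84123176-84123425, minus strand: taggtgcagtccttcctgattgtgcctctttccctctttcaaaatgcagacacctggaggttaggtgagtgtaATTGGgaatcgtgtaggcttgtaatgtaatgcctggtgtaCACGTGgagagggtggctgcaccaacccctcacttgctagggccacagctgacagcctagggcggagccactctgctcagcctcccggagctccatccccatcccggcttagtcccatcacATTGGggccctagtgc
Pnpla3, chr15:84167566-84167815, plus strand: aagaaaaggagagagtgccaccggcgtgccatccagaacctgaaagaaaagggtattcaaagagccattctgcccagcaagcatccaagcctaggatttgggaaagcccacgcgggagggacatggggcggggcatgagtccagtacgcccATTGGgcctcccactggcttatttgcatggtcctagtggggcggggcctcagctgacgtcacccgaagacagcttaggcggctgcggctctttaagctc
*Pnpla5* holds CACGTG at -137 to -132, which 6.02% of all 32851 windows hold. Both hold CCAAT, read on the opposite strand as ATTGG. The sterol element core TCACNCCAC (in 1.05% of all windows), the hexamer AGGTCA (14%), its direct repeat DR1, which contains the hexamer (0.0335%), and the TATA box TATAAA (12.4%) gave no match in either window. In the windows of *Plin2*, *Plin4* and *Plin5*, the sterol element core, DR1, the TATA box and the E-box gave no match either. The windows say nothing of sites farther away.

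*Pnpla3* was measured on chromosome 15 (mm9, 84019823 to 84019882). In WT CONT mice it was dim, with log2 signals of 5.15, 5.36 and 6.71 as lowest, median and highest, and it was well above background on 3 of 6 arrays. The WT PCN mice had 8.67, 9.03, 9.03, 7.16 and 7.79, all above the WT CONT mice and all well above background. The change was 2.86 (SE 0.47, limma adjusted p = 1.99e-04). Its size rests on WT CONT values near background, and no fold is given for this probe. In *Pxr*-/- mice *Pnpla3* was spread widely in both groups, with 5.72, 7.06 and 8.85 in CONT and 6.01, 7.12 and 8.45 after PCN. The change between them was 0.00 (95% interval -0.93 to 0.93, limma adjusted p = 1). The PCN effects differed by 2.86 (SE 0.65, adjusted p = 0.0246), which was called.

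The second *Pnpla3* probe lies on the same chromosome (mm9, 84016440 to 84016499) and was well above background on all 23 arrays. It had 5.36, 5.45 and 5.71 in WT CONT mice as lowest, median and highest. The WT PCN mice had 7.23, 7.92, 7.45, 6.50 and 6.56. *Pxr*-/- CONT mice ran from 6.13 to 8.22 and *Pxr*-/- PCN mice from 6.03 to 7.18. On this probe every mouse of the other 3 groups lay above every WT CONT mouse. PCN raised it by 1.68 in WT mice, or 3.20-fold (SE 0.27, limma adjusted p = 1.31e-04), and the difference between the PCN effects was 2.01 (SE 0.37, adjusted p = 0.00362). Its WT CONT values, too, were close to the lowest signals well above background, so this fold is uncertain. The probes ran together over the 23 arrays, with Pearson's r of 0.867.

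*Pnpla5* was measured on chromosome 15 (mm9, 83942786 to 83942844), with a probe designed on a predicted transcript model. In WT CONT mice it had 5.45, 6.10 and 7.48 as lowest, median and highest log2 signals. The WT PCN mice had 10.37, 10.00, 9.22, 7.94 and 9.08, all above them. The change was 3.20 (SE 0.56, limma adjusted p = 3.24e-04), or 9.21-fold higher. All 6 WT CONT arrays were well above background for this probe. The lowest signals that were so on these arrays were 5.07 to 5.25, close to the lowest *Pnpla5* values, so the fold is uncertain. *Pxr*-/- CONT mice already had 8.33, 9.30 and 11.21, overlapping the WT PCN mice and reaching above them, and *Pxr*-/- PCN mice had 6.81, 8.86 and 10.21. The PCN change in *Pxr*-/- mice was -0.87 (SE 0.53, limma adjusted p = 0.363) and was not called. The PCN effects differed by 4.07 (SE 0.77, adjusted p = 0.00516). The second *Pnpla5* probe (mm9, 83943118 to 83943177) gave 1.42 in WT mice (SE 0.35, adjusted p = 0.00565) and 2.03 for the difference (SE 0.49, adjusted p = 0.0352), with Pearson's r of 0.954 between the probes over 23 arrays.

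Within washing batch 1 the PCN change in WT mice was 2.50 for *Pnpla3* (adjusted p = 0.0137) and 3.19 for *Pnpla5* (adjusted p = 0.0076), and within batch 2 it was 3.28 (adjusted p = 0.0248) and 3.20 (adjusted p = 0.067). The difference between the PCN effects was not called within a batch alone, at 1.73 and 4.04 for *Pnpla3* and 3.36 and 4.76 for *Pnpla5*. For *Pnpla3* it was also lost without the batch term (2.77, adjusted p = 0.067) and without WT PCN replicate 2 (adjusted p = 0.0565), *Pxr*-/- CONT replicate 5 (adjusted p = 0.0519) or *Pxr*-/- PCN replicate 3 (adjusted p = 0.0506). The size of the WT change depended on the treatment of background, from 2.22 with normexp correction to 4.20 with the scanner's processed signal for *Pnpla3* and from 2.72 to 4.04 for *Pnpla5*. The difference of the *Pnpla5* effects then ran from 3.49 to 4.99. As a mean over its probes, the WT change of *Pnpla5* was 2.31.

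**Figure D4:**
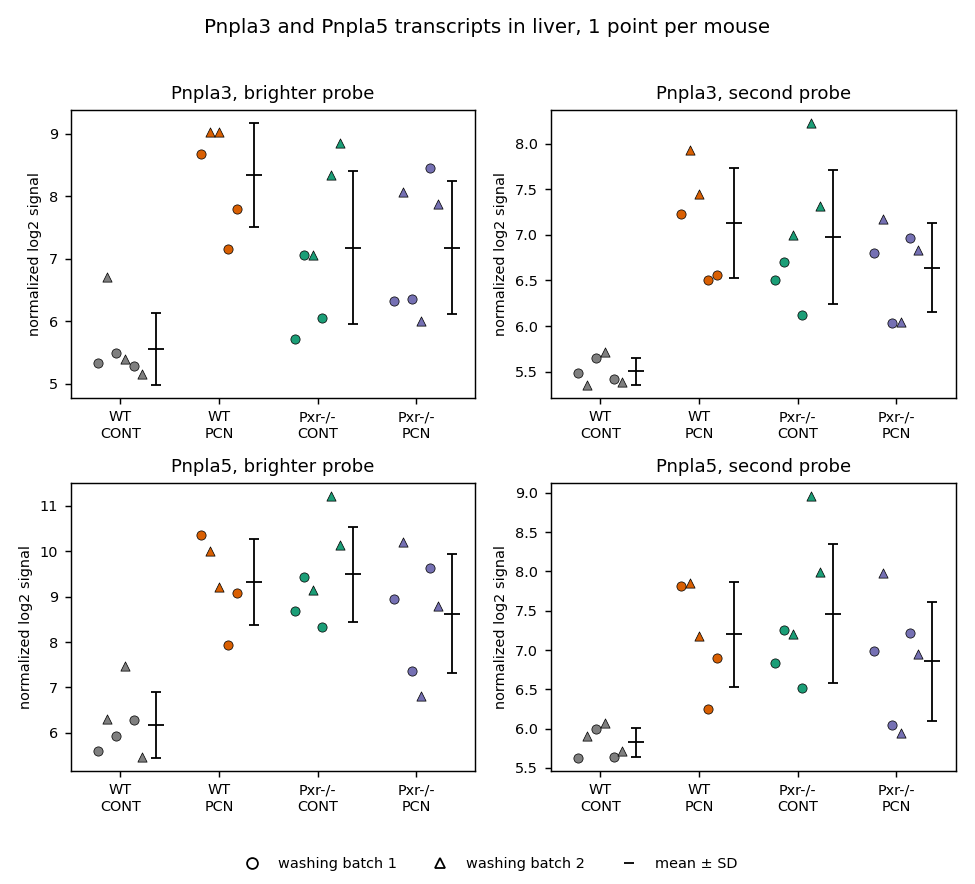
Normalized log2 signal (y axis) of both probes of *Pnpla3* and of *Pnpla5* in each mouse of the 4 groups (x axis), with the mean ± SD beside each group and the marker showing the washing batch. WT CONT mice are the lowest group in every panel, and the WT PCN points lie above all of them.

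The genotypes were also compared directly. This comparison uses the same 6 WT CONT arrays as the PCN comparison in WT mice, so the values stand side by side and do not support each other. In control mice, *Pnpla5* was the only one of the 10 genes called, 3.32 higher in *Pxr*-/- than in WT mice (SE 0.53, limma adjusted p = 0.00282), or 9.97-fold, against 0.309% of all genes called, 0.228% higher and 0.0807% lower. The groups did not overlap. Its second probe gave 1.64 (SE 0.34, adjusted p = 0.0241). The 9.97-fold difference rests on WT CONT values of which the lowest are near background. *Pnpla3* was 1.62 higher on the brighter probe (SE 0.45, limma adjusted p = 0.136), with overlapping groups, and was not called. Its second probe was called at 1.47 (SE 0.25, adjusted p = 0.00566), so the probes differed in the call and not in the direction. Within washing batches 1 and 2 the *Pnpla5* difference was 2.88 (adjusted p = 0.261) and 3.75 (adjusted p = 0.085). It was 2.84 with normexp correction, 4.18 with the processed signal and 2.48 as a mean over the probes.

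Between *Pxr*-/- PCN and WT PCN mice, limma called none of the 10 genes, against 2.09% of all genes, 0.731% higher and 1.36% lower, and 2 of the 10 had an unadjusted p under 0.05. *Pnpla3* was -1.24 (SE 0.47, adjusted p = 0.108) and *Pnpla5* -0.75 (SE 0.56, adjusted p = 0.438). *Pnpla3* was called there with the deposited values (-1.46, adjusted p = 0.0258) and without *Pxr*-/- PCN replicate 5 (-1.63, adjusted p = 0.0272). The order of the group means was WT PCN, *Pxr*-/- PCN, *Pxr*-/- CONT and WT CONT for *Pnpla3*, and *Pxr*-/- CONT, WT PCN, *Pxr*-/- PCN and WT CONT for *Pnpla5*. For *Pnpla3* no neighbouring pair in that order was called on the brighter probe. For *Pnpla5*, the values of the first 3 groups overlapped.

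Mice that were high for one neighbouring gene were often high for the other. After group means and washing batch were taken out, the Pearson correlation over 23 arrays was 0.73 for *Pnpla3* with *Pnpla5* and 0.70 for *Plin4* with *Plin5*, the highest of all pairs. *Plin2* with *Cidec* (0.67) and *Cidea* with *Cidec* (0.61) came next, and the lowest was *Plin5* with *Cideb* (-0.55). These are descriptions, since the values of a pair share an array and its normalization. On the brighter probes, *Pxr*-/- mice had the widest spread along the *Pnpla3* and *Pnpla5* axis. On the second *Pnpla3* probe the SD was 0.49 in *Pxr*-/- PCN and 0.60 in WT PCN mice.

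**Figure D5:**
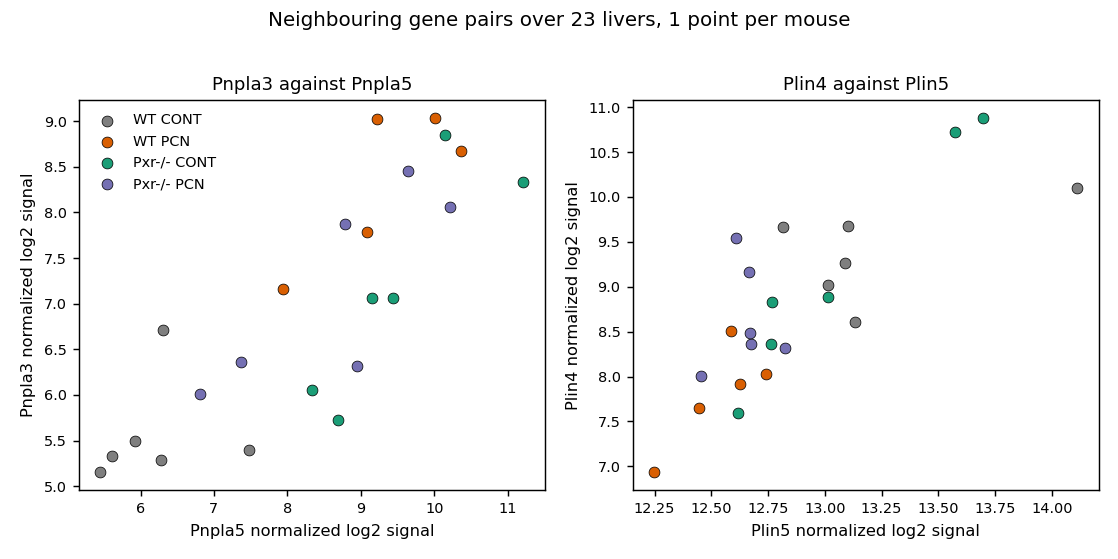
Normalized log2 signals of *Pnpla3* (y axis) against *Pnpla5* (x axis) and of *Plin4* against *Plin5*, with 1 point per mouse coloured by group. WT CONT mice fill the lower left of the first panel, and in the second the WT PCN mice lie at the lower left.

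Genes with the most similar pattern were named by Pearson's r over the 23 arrays, group differences included and washing batch removed. For *Pnpla3* they were *Asl* (0.862), *Thrsp* (0.850) and *Umps* (0.842), and for *Pnpla5* *Chrna4* (0.932), *Acacb* (0.929) and an unnamed Ensembl transcript (0.895). For *Plin4* the named ones were *Lipg* (0.877) and *Zc3h3* (0.842), for *Plin5* *Pik3c2a* (0.894), *AA986860* (0.865) and *Smad7* (0.852), and for *Plin2* *Mtnr1a* (0.828) and *Hsdl2* (0.824). The probe most like *Plin2* (0.903) is named in the file by a stretch of chromosome 4 and not by a gene.

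The other genes of droplet and triglyceride handling were counted from lists of known function. Genes outside the naming rule, *Apob*, *Tm6sf2*, *Agpat2*, *Srebf1* and *Me1* below and *Cfd*, *Fabp4*, *Plin1* and *Plin3* above, were chosen after their values were seen. The same holds for the other cell type markers singled out, *Adipoq*, *Ucp1* and *Car3* above and *Gpnmb* and *Apoa1* below. Of 18 other genes of droplet coat and biogenesis, 1 was called higher in WT mice given PCN and none lower. This was *Hilpda*, an inhibitor of ATGL that sits on droplets, at 0.77 (SE 0.15, limma adjusted p = 0.00103). Of 17 other lipases and cofactors, 2 were called higher and 3 lower in WT mice. The carboxylesterases *Ces1g* (1.11, SE 0.22) and *Ces1d* (1.07, SE 0.22), which hydrolyse triglyceride in hepatocytes, rose. The monoacylglycerol lipase *Mgll* (-0.88, SE 0.18), the lysophospholipase *Pnpla7* (-0.87, SE 0.14) and the endothelial lipase *Lipg* (-0.80, SE 0.25) fell. *Pxr*-/- mice gave calls for *Ces1g* (0.94, SE 0.21) and *Pnpla7* (-0.78, SE 0.13) too. Of 17 genes of triglyceride synthesis and export, limma called none in WT mice, where 8 had an unadjusted p under 0.05. *Apob* (-0.52, limma adjusted p = 1.25e-05), *Tm6sf2* (0.54, adjusted p = 0.00789) and *Agpat2* (-0.31, adjusted p = 0.0215) missed only the fold threshold in WT mice. In *Pxr*-/- mice 1 of the 17 was called lower, the glycerol phosphate acyltransferase *Gpam* (-0.60, SE 0.16, adjusted p = 0.028).

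Of 14 genes listed for the lipogenic program of SREBP-1c and ChREBP, 4 were called higher and 1 lower in WT mice given PCN. Called or not, 10 were higher and 4 lower. The list includes the factors themselves and other regulators such as *Insig2*, so a call is not read as a rise or fall of lipogenesis. *Thrsp*, a lipogenic regulator, rose by 1.75 (SE 0.44, limma adjusted p = 0.0061), the elongase *Elovl6* by 1.09 (SE 0.36), *Insig2* by 1.06 (SE 0.27) and the mitochondrial acetyl-CoA carboxylase *Acacb* by 1.00 (SE 0.26). *Srebf1*, which encodes SREBP-1c, fell by 0.70 (SE 0.25, adjusted p = 0.0495). After PCN in *Pxr*-/- mice 2 of the 14 were called lower, the desaturase *Scd1* (-1.5, SE 0.40) and the malic enzyme *Me1* (-1.03, SE 0.24), and none was called higher. Called or not, 13 were lower and 1 higher there, with a median change of -0.55, and 8 had an unadjusted limma p under 0.05. The difference between the PCN effects was called for *Elovl6* (1.99, SE 0.49) and *Insig2* (1.53, SE 0.37), as for *Pnpla3* and *Pnpla5*. The uncalled changes in *Pxr*-/- mice were -0.90 for *Elovl6*, -0.47 for *Insig2*, 0.00 for *Pnpla3* and -0.87 for *Pnpla5*. In control mice *Acacb* was the only one of the 14 called between genotypes, 1.22 higher in *Pxr*-/- mice (SE 0.25, adjusted p = 0.0208). Called or not, 12 of the 14 were higher in *Pxr*-/- CONT than in WT CONT mice and 2 lower. Their median difference was 0.60, against -0.005 over all genes, and 8 had an unadjusted limma p under 0.05.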

How the data were processed

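Liver RNA was labelled with a single dye and hybridised to Agilent arrays read with Feature Extraction 10.10.1.1. The deposited scanner files hold the median spot intensity, not background subtracted. The authors also deposited a table of log2 values, which they filtered, corrected for washing batch and normalized with CrossNorm. Its direction and scale followed the scanner values (lowest Pearson's r with the same array 0.9997), its 32574 probes had array medians from 7.54 to 8.01, and it served as an alternative, as CrossNorm was not available. Probe coordinates are those of the array design (mm9), and the exon or UTR a probe lies in is not given in the sources used here.

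From the scanner files, control spots and outlier spots (2225 of all non-control spots) were removed, log2 median intensities were averaged per probe, and probes well above background on a share above 0.5 of the arrays of at least 1 group were kept. Values were quantile normalized. limma 3.58.1 (R 4.3.3) was fitted to group and washing batch over all 23 arrays, with 18 residual degrees of freedom, and 5 contrasts were tested: PCN in each genotype, their difference, and genotype within each treatment. Benjamini-Hochberg adjustment ran over 32087 probes in each contrast, and a call needed an adjusted p of at most 0.05 and a fold above 1.5. Counts over genes use the kept probe with the highest mean. The steps were tested on simulated data. The number of arrays limits the precision, and each array is 1 mouse.

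The 10 genes and all lists were chosen with earlier results of these data known. Named genes were the 10 members, up to 4 called genes with the largest change from each list, the 3 genes most like each called member, and *Cyp3a11*. Alternatives were the background correction, scaling, filter, batch term, slide or replicate number as a block, each washing batch alone, only the compared groups, another probe rule, the deposited values and each array left out. Promoter windows came from RefSeq (GRCm38.p6), where 9 of the 10 genes matched.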

Additional observations from a re-analysis of the deposited data

Results flagged for a closer look

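Within groups, 7 of 60 sets of values held 1 mouse far from the rest, measured as its gap to the nearest mouse over the whole range of the group. Chance gives this in about 1 in 20 groups. For *Plin5*, WT CONT replicate 2 was the highest mouse, at a log2 signal of 14.11 with a gap of 0.755 of the range, and its second probe gave 13.37 and 0.86. For *Pnpla3*, WT CONT replicate 2 was the highest at 6.71, with a gap of 0.785. On the second *Plin2* probe, WT CONT replicate 4 stood at 10.94 (0.759) and *Pxr*-/- CONT replicate 2 at 9.37 (0.672). *G0s2* was highest in *Pxr*-/- PCN replicate 6 at 12.76 (0.66), and *Pnpla2* was lowest in *Pxr*-/- PCN replicate 5 at 12.39 (0.724).

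The effect of PCN differed between the genotypes, by limma's interaction term, for both probes of *Pnpla3* (2.86 and 2.01 on the log2 scale) and both probes of *Pnpla5* (4.07 and 2.03). These sizes rest on WT CONT values near background, where the brighter *Pnpla3* probe was well above it on 3 of 6 arrays, and are uncertain.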

How the results depend on the processing

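Of the values recomputed with another setting but all arrays of that setting kept, 29 changed direction and 621 kept their direction and, where a call was tested, their side of the threshold. Among the calls of the 10 genes, PCN in WT mice was called in 11 of 13 settings for *Plin2*, 12 of 13 for *Plin4*, 10 of 13 for *Plin5*, 13 of 13 for *Pnpla3* and 12 of 13 for *Pnpla5*. The difference of the PCN effects was called in 9 of 12 for *Pnpla3* and 10 of 12 for *Pnpla5*, and the control genotype difference in 11 of 13 for *Pnpla5*. The cause of the lost calls was not tested, except that each washing batch alone holds fewer arrays.

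Calls among the 10 genes for PCN in WT mice went from 5 to 3 with the deposited values, 3 in washing batch 1 and 2 in batch 2. For the difference of the PCN effects they went from 2 to 1 without the batch term and to 0 in either batch. For control genotype they went from 1 to 0 in either batch, and with PCN from 0 to 1 with the deposited values. Over all genes, PCN in WT mice gave 1302 calls and 689 in batch 2. PCN in *Pxr*-/- mice gave 481, with 55 in batch 1 and 93 in batch 2. The difference gave 221, with 84 and 91. Control genotype gave 65, with 9 in batch 1 and 42 with only the compared groups. Genotype with PCN gave 441, with 1097 by the deposited values, 280 in batch 1 and 118 in batch 2.

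With 1 array left out, the calls for PCN in WT mice ran from 1225 to 1419 over all genes and from 4 to 5 among the 10. PCN in *Pxr*-/- mice gave 311 to 555 (311 without *Pxr*-/- PCN replicate 4) and 0. The difference gave 190 to 260 and 1 to 2, control genotype 51 to 82 and 1 to 2, and genotype with PCN 333 to 502 and 0 to 1. Values that changed sign ran, for PCN in WT mice, from -0.14 to 0.10 for *Cidea* and from -0.039 to 0.27 for *Cidec*. For PCN in *Pxr*-/- mice *Pnpla3* ran from -0.36 to 0.34. For control genotype *Plin4* ran from -0.49 to 0.12, *Plin5* from -0.24 to 0.020 and *Cidec* from -0.17 to 0.075. With PCN, *Plin2* ran from -0.11 to 0.13, *G0s2* from -0.19 to 0.36 and *Pnpla2* from -0.015 to 0.19. None of these was a called value.

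Other changes of sign concerned no called value. With the deposited values, PCN in WT mice became 0.090 for *Cidea*, 0.022 for *Cideb* and 0.069 for *Pnpla2*, and genotype with PCN -0.26 for *Plin2*, -0.16 for *Plin5*, -0.017 for *Cideb*, -0.16 for *G0s2* and -0.18 for *Pnpla2*. The PCN value of *Pnpla3* in *Pxr*-/- mice was -0.018 with 75th percentile scaling, -0.021 with normexp, -0.0020 with no filter, -4.0e-04 with the filter on all arrays, -0.77 in batch 2 and -0.17 as a mean over probes. *Cideb* in control genotype was 0.042 with 75th percentile scaling, 0.040 in batch 2, 0.079 with the processed signal and 0.051 as a mean over probes. *Plin2* with PCN was -0.041 with 75th percentile scaling and in batch 1, and -0.019 with the processed signal. In batch 1, PCN in *Pxr*-/- mice was 0.19 for *Plin4* and -0.016 for *Pnpla2*, and *Pnpla2* with PCN was -0.055. In batch 2, *Cidec* in WT was -0.037, *Plin4* in control genotype 0.67 and *G0s2* with PCN -0.27.

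With the replicate number as a block, calls among the 10 genes were 5, 0, 2, 1 and 0 in the 5 comparisons, as without it, and 1299, 502, 237, 81 and 467 over all genes. *Cidea* in WT then became 0.018 and *G0s2* with PCN -0.070. The numbers were not taken as pairs, since 12 of 33 same-numbered pairs had a correlation of deviations above 0.1, and 8 of 23 arrays correlated best with their own number.

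*Pnpla3* and, in part, *Pnpla5* in WT CONT mice and *Cidea* in WT PCN mice lie near background, which limits how well their changes are measured.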

Other observations

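Genes of fatty acid oxidation known to follow PPARα were counted as well. In WT mice given PCN, limma called 7 of 18 lower and 1 higher, with a median change of -0.44 over the list. The fatty acid hydroxylases *Cyp4a31* (-1.91, SE 0.41) and *Cyp4a10* (-1.70, SE 0.35), the thioesterase *Acot1* (-1.73, SE 0.30) and *Ppara* itself (-1.05, SE 0.10) fell, and *Pdk4*, which was chosen after its value was seen, rose by 1.00 (SE 0.22). In *Pxr*-/- mice none of the 18 was called by limma, and 3 had an unadjusted p under 0.05. The difference between the PCN effects was called for *Ppara* (-0.87, SE 0.14) and *Cpt1a* (-0.79, SE 0.15), the latter chosen after its value was seen.

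Of 9 markers of Kupffer cells and macrophages, *Gpnmb* was the only one over the call thresholds with PCN in WT mice. It passed the filter on dim probes only through the PCN groups, so its change is not given and the call is not read as a result. Only 1 of the 6 control arrays of WT mice detected *Gpnmb* clearly, against 4 of the 5 arrays with PCN. Its log2 signals ran from 4.95 to 5.79 in WT CONT and from 5.07 to 8.74 in WT PCN mice, so the groups overlapped. The control values of *Gpnmb* lie near background, so its level in WT CONT mice was not well measured. None of the 9 markers was called in *Pxr*-/- mice, where 1 had an unadjusted p under 0.05. Of 9 stellate cell markers limma called none in WT mice, where 2 had an unadjusted p under 0.05, and none in *Pxr*-/- mice, where 0 had. Of 8 hepatocyte markers, none was called in WT mice, where 0 had an unadjusted p under 0.05, and *Apoa1* was 0.62 higher in *Pxr*-/- mice given PCN (SE 0.10).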
